A study of Mus musculus with 24 samples.

Results

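The comparison asked how nerve injury was related to RNA levels in the nucleus accumbens of mice across both viral vectors. All 24 libraries of the study entered it, 12 from mice with spared nerve injury (SNI) against 12 from sham-operated mice, with the vector as a covariate. Libraries were assigned by their labels for surgery, so no measured value decided which library stood on which side. Tibial SNI is a model of neuropathic pain in which branches of the sciatic nerve are injured, here on the left side, and sham mice had the same operation with the nerves left untouched. Each surgery group held 6 libraries with the Gfp vector, AAV8-hSyn-Egfp, and 6 with the Mef2c vector, AAV8-hSyn-Mef2c-Egfp. Both vectors were injected into the accumbens on both sides and use the human synapsin promoter, which drives expression in neurons. Every library, controls included, therefore came from tissue that had received an Egfp-carrying virus. The mice were C57BL/6J or DBA/2J and 8 to 9 weeks old, and the labels do not give the strain or the mouse of single libraries. Tissue was punched from the accumbens on both sides, and RNA went into an Illumina stranded mRNA preparation.

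The nucleus accumbens is the ventral part of the striatum and takes part in reward, motivation and the affective side of pain. Most of its neurons are GABAergic medium spiny neurons that express the dopamine receptors Drd1 or Drd2 and receive glutamate input from cortex, thalamus, hippocampus and amygdala. Folding of secreted and membrane proteins in the endoplasmic reticulum, ATP production in mitochondria and translation on ribosomes are served by large sets of genes expressed in every cell of such tissue. Interferon-stimulated genes, in contrast, are low in resting brain and respond to viral nucleic acid. MEF2C is a transcription factor of neurons that responds to activity and calcium.

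Library totals ranged from 28328510 to 34078177 counts in sham and from 25477019 to 36570108 in SNI. Of 55401 gene identifiers, 23738 had enough counts to be tested, and 6616 of these overlapped a more abundant gene. Reads had been counted over whole gene spans, introns included, so the level of an overlapped gene is uncertain, and the partner is named where it applies. Mef2c had means of 169 CPM (counts scaled to library size, per 1e+06) in Sham Gfp, 168 in SNI Gfp, 243 in Sham Mef2c and 611 in SNI Mef2c, with 6 libraries in each. Sham Mef2c libraries 2 and 5, at 125 and 123 CPM, lay below all libraries of the Gfp vector. With the Mef2c vector, Mef2c ranged from 123 to 469 CPM in sham and from 474 to 832 in SNI, without overlap. Differences given with the Mef2c vector, and their share in the averages, therefore cannot be told apart from differences in Mef2c level. Markers of medium spiny neurons had a mean log2 CPM between 7.16 and 8.31 in 23 libraries and of 6.77 in SNI Mef2c library 1, where cortical markers stood at 6.73 against 3.54 to 6.13 in the others. Since the labels do not tie libraries to separate mice, p-values here reflect the spread among libraries, which may be technical. In bulk tissue, fewer cells of a type and less RNA per cell cannot be told apart. Ranges and medians given for sham or SNI pool both vectors, so a difference between the vectors enters them as well.

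No gene passed the test of SNI against sham averaged over both vectors. With edgeR's quasi-likelihood test and Benjamini-Hochberg adjustment, 0 of 23738 genes (0%) had an adjusted p below 0.05, and the smallest was 0.0649, for the zinc finger gene Zfp574. At an unadjusted p below 0.05 there were 3004 genes, 12.7% of those tested. Of these, 1411 (5.94%) had higher and 1593 (6.71%) lower levels in SNI. On the same counts limma-voom, fitted here with an estimated quality weight per library, called 0 genes (0%). DESeq2 called 38 (0.16%), 24 with higher levels (0.101%) and 14 with lower (0.059%). In no gene did the 12 SNI libraries lie wholly above or wholly below the 12 sham libraries. Differences with the lowest p-values were small: 8 of the 10 named genes with the smallest p lay between -0.18 and 0.17 on the log2 scale.

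**Figure D1:**
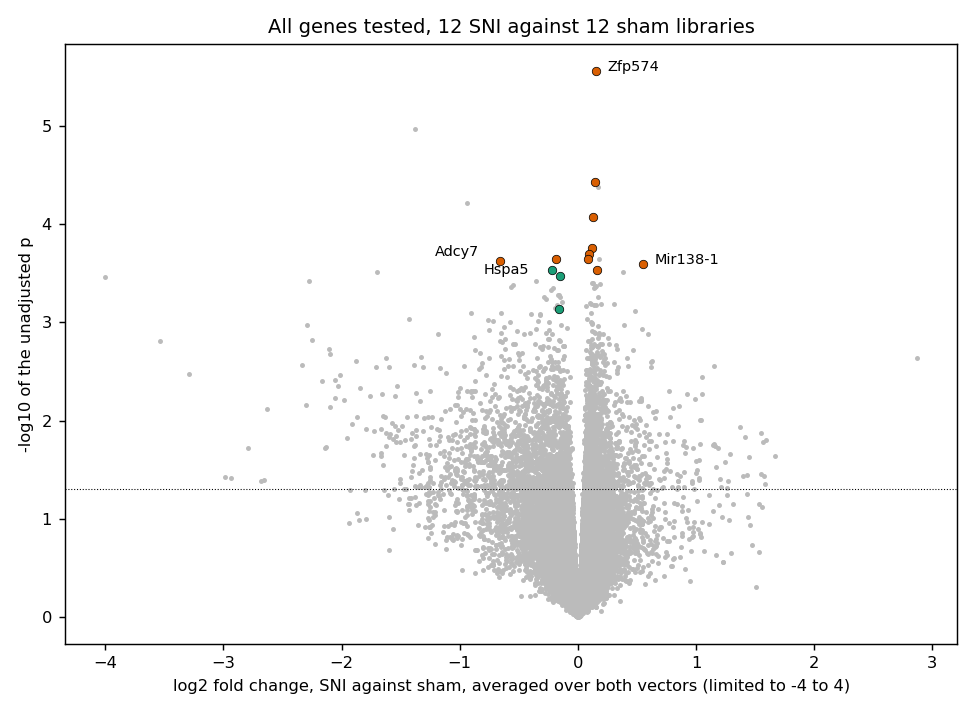
Log2 fold change of SNI against sham averaged over both vectors (x axis, limited to -4 to 4) and -log10 of the unadjusted p from edgeR (y axis) for the genes tested. The dotted line marks an unadjusted p of 0.05, orange points are the 10 named genes with the smallest p, and green points are Hspa5, Pdia6 and Pdia3. Zfp574 stands highest, with an adjusted p of 0.0649, and no gene had an adjusted p below 0.05.

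Zfp574, which encodes a zinc finger protein and lies at chr7:25072567-25083492 in the files' mm10 build, had the smallest p. It ranged from 52.0 to 61.8 CPM in sham (median 55.9) and from 58.6 to 67.8 in SNI (median 62.0). All 12 SNI libraries were above the sham median and 6 were above the highest sham library, so the groups overlapped in part. The log2 difference was 0.15 (SE 0.025), at 0.17 with the Gfp vector and 0.14 with the Mef2c vector. Its adjusted p was 0.0649 in edgeR, 1.73e-05 in DESeq2 and 0.115 in limma-voom, so the call depended on the tool. Cby1, an antagonist of beta-catenin signalling that also acts at cilia, ranged from 25.7 to 29.5 CPM in sham (median 27.1) and from 27.6 to 32.8 in SNI (median 30.0). All 12 SNI libraries exceeded the sham median of Cby1, with a log2 difference of 0.15 (SE 0.0288, edgeR adjusted p = 0.248).

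Gpaa1, a subunit of the transamidase that attaches GPI anchors, had means of 27.2 CPM (SD 1.08, n = 12) in sham and 29.7 (SD 1.42, n = 12) in SNI, with 11 of 12 SNI libraries above the sham median. Sar1b, a GTPase of the COPII coat of vesicles leaving the endoplasmic reticulum, had means of 46.1 CPM (SD 1.77, n = 12) in sham and 49.1 (SD 1.57, n = 12) in SNI, and 7 SNI libraries exceeded the highest sham library. Zfand5, a zinc finger protein linked to proteasome activity, had means of 126 CPM (SD 5.53, n = 12) in sham and 137 (SD 8.55, n = 12) in SNI, and 8 SNI libraries exceeded the highest sham library. These were log2 differences of 0.13 (SE 0.0276), 0.09 (SE 0.0211) and 0.12 (SE 0.0265), each with an edgeR adjusted p of 0.309. For Fbxw5, a substrate receptor of a ubiquitin ligase, the means were 81.8 CPM (SD 2.11, n = 12) in sham and 86.8 (SD 2.67, n = 12) in SNI, and all 12 SNI libraries lay above the sham median. Slc25a29, a mitochondrial carrier of basic amino acids, had means of 10.5 CPM (SD 0.718, n = 12) in sham and 11.8 (SD 0.601, n = 12) in SNI. It showed more SNI libraries beyond the highest sham library than the other 9 named genes with the smallest p, 9 of 12.

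Only Adcy7 and Tvp23a among these 10 had lower means in SNI. Adcy7, an adenylyl cyclase that makes cyclic AMP, ranged from 10.4 to 48.7 CPM in sham (median 23.6) and from 9.04 to 31.6 in SNI (median 11.6). Its log2 difference of -0.66 (SE 0.151, edgeR adjusted p = 0.309) was -0.61 (SE 0.22) with Gfp and -0.71 (SE 0.22) with Mef2c. Its means were 31.1, 20.4, 16.5 and 10.1 CPM in Sham Gfp, SNI Gfp, Sham Mef2c and SNI Mef2c. Adcy7 is abundant in immune cells, and the mean of the interferon list was also highest in Sham Gfp, at 5.14 log2 CPM against 2.95, 1.69 and 1.72 in the same order; its part in the Adcy7 difference was not tested. Tvp23a, a Golgi membrane protein, had means of 50.7 CPM (SD 5.44, n = 12) in sham and 44.5 (SD 4.03, n = 12) in SNI, with 1 SNI library above the sham median. The locus Mir138-1 had means of 0.400 CPM (SD 0.107, n = 12) in sham and 0.588 (SD 0.105, n = 12) in SNI, but it is overlapped by the more abundant Gm47135, and reads cannot be given to either. DESeq2 called the other 9 of these 10 genes, where it called 0.16% of all genes, and gave Mir138-1 no adjusted p. The 10 were picked by their edgeR p on the same counts, so this count is no separate support. With limma-voom 0 genes were called.

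**Figure D2:**
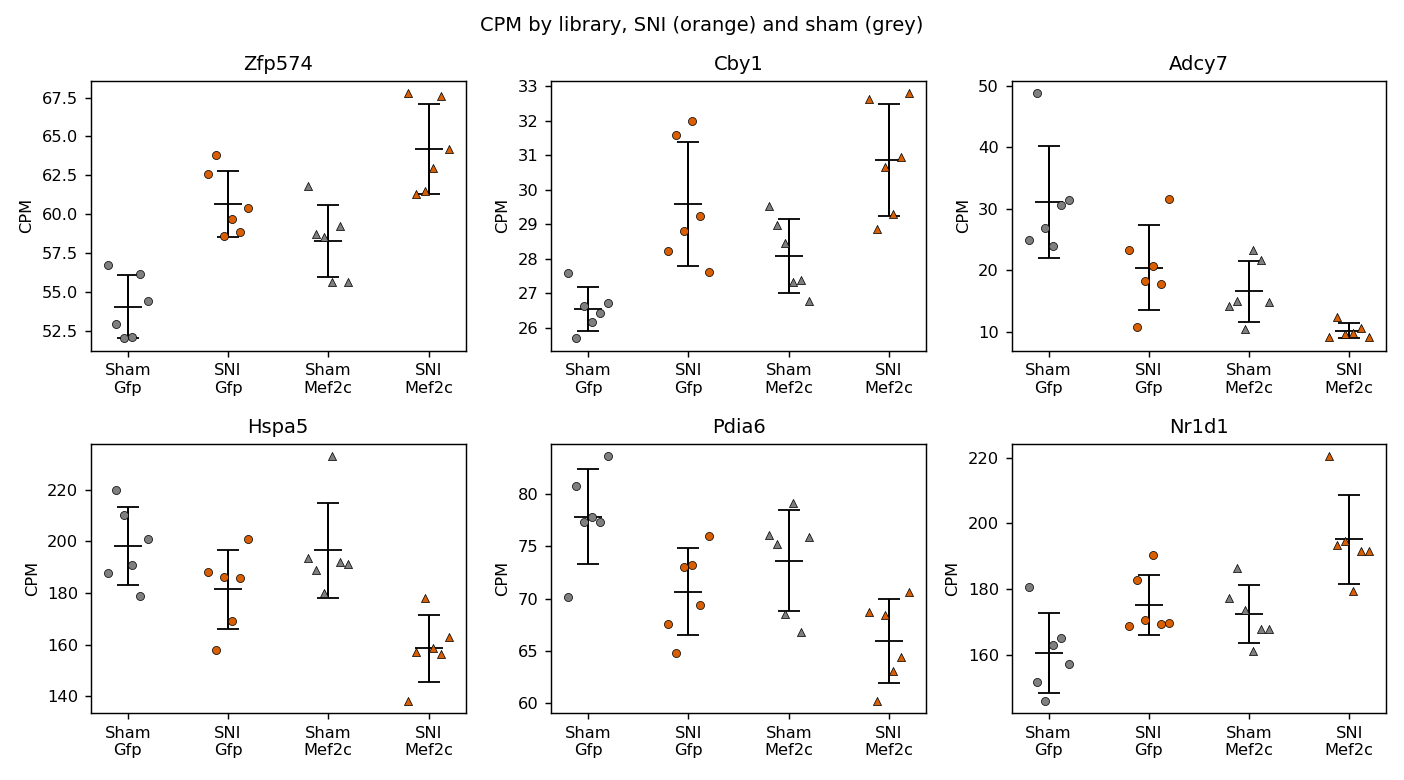
Level in CPM (y axis) of Zfp574, Cby1, Adcy7, Hspa5, Pdia6 and Nr1d1 in each library, by surgery and vector; circles are the Gfp and triangles the Mef2c vector, and bars give the mean and SD of 6 libraries. Means are higher in SNI than in sham of the same vector for Zfp574, Cby1 and Nr1d1 and lower for Adcy7, Hspa5 and Pdia6, and libraries overlap within a vector except for Zfp574 and Cby1 with Gfp and Hspa5 with Mef2c.

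Chaperones and folding enzymes of the endoplasmic reticulum had lower means in SNI with both vectors. Of 20 genes on the list of the endoplasmic reticulum stress response, 18 were lower and 9 reached an unadjusted p below 0.05, all of them lower, where 6.71% of all genes did so. The median log2 difference was -0.09 averaged over both vectors, -0.09 with Gfp and -0.10 with Mef2c, beside a median of all genes tested within 0.01 of zero. None passed edgeR's adjusted threshold, while DESeq2 called 3 of the 20, namely Hspa5, Pdia6 and Pdia3, where it called 0.059% of all genes as lower. Of the 17 members with an entry among the RefSeq promoters (GRCm38.p6, 250 bases before to 50 after the start), 7 held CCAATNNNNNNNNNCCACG on either strand, the layout of the endoplasmic reticulum stress element. These letters occurred in 39 of 32851 promoters of that length, 0.119%. The promoters of 3 members are shown because they hold the match in genes described next, each as the 250 bases before the start with the match in capitals.
Hspa5: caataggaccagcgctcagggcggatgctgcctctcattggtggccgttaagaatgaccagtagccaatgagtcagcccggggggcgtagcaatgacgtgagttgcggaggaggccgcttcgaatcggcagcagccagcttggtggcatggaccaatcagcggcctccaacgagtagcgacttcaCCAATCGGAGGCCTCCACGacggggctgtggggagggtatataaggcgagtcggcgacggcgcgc
Pdia6: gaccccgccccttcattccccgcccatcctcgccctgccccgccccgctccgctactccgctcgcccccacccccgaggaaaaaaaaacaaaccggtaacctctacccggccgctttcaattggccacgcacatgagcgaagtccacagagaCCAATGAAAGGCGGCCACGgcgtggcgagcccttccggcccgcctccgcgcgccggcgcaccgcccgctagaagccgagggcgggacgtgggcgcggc
Hsp90b1: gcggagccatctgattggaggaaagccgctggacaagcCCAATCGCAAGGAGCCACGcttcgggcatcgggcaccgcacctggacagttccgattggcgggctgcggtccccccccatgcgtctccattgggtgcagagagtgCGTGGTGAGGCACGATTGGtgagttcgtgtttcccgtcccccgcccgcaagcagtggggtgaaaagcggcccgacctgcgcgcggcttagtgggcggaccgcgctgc
They lie at chr2:34771840-34772089 on the plus strand, chr12:17266339-17266588 on the plus strand and chr10:86705445-86705694 on the minus strand. Hsp90b1 holds 2 matches, the second as the reverse complement. The other members with a match were Calr, Canx, Creld2 and Dnajc3. All 7 genes had a lower mean in SNI, with a median log2 difference of -0.14. The list was drawn up from genes of this response, and 18 of all 20 members were lower. These shares therefore do not link the match to the difference. A match describes letters in the window and was not tested as a site.

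Hspa5 encodes BiP, the main HSP70 chaperone of the endoplasmic reticulum. It ranged from 179 to 233 CPM in sham (median 192) and from 138 to 201 in SNI (median 166). Of the 12 SNI libraries, 8 lay below the lowest sham library and 1 above the sham median. The log2 difference was -0.22 (SE 0.0513), with an adjusted p of 0.309 in edgeR and 0.0347 in DESeq2. It was -0.13 (SE 0.07) with Gfp and -0.31 (SE 0.07) with Mef2c, and the interaction had an adjusted p of 0.37 in edgeR. Pdia6 and Pdia3 are isomerases that form and rearrange disulfide bonds. Pdia6 ranged from 66.8 to 83.6 CPM in sham (median 76.7) and from 60.2 to 76.0 in SNI (median 68.6). No SNI library exceeded the sham median of Pdia6, and the log2 difference was -0.15 (SE 0.0356), at -0.14 with Gfp and -0.16 with Mef2c. Pdia3 had means of 174 CPM (SD 17.6, n = 12) in sham and 156 (SD 13.3, n = 12) in SNI, a log2 difference of -0.16 (SE 0.0409).

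Sdf2l1, a partner of BiP, had the lowest log2 value of the list, -0.36, with -0.51 in Gfp and -0.20 in Mef2c. The lectin chaperone Calr stood at -0.14, the HSP90 chaperone Hsp90b1 at -0.17, the isomerase Pdia4 at -0.15, the co-chaperone Dnajc3 at -0.09 and the transcription factor Xbp1 at -0.10, all at an unadjusted p below 0.05. Not every member followed. The co-chaperone Dnajb9 and the membrane protein Herpud1 were both at -0.01, the sensor Atf6 at 0.12, and Trib3, a pseudokinase induced late in the response, at -0.29 with Gfp and 0.89 with Mef2c. Leaving out each of the 24 libraries in turn left 16 to 18 members lower, 8 to 10 at an unadjusted p below 0.05, and the median between -0.10 and -0.07. With each library's interferon mean as a covariate, the median was -0.07 with 9 members at that threshold. The mean of the list lay between 5.86 and 6.05 log2 CPM in Sham Gfp, 5.76 and 5.99 in SNI Gfp, 5.75 and 5.87 in Sham Mef2c, and 5.66 and 5.88 in SNI Mef2c. Surgery groups overlapped in both vectors, and the list mean was also lower in Sham Mef2c than in Sham Gfp.

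Transcripts encoded by the mitochondrial genome had higher means in SNI with both vectors. All 13 protein-coding genes were higher, also within each vector, and 13 of 13 had an unadjusted p below 0.05, where 5.94% of all genes were higher at that threshold. Within the vectors this p was reached by 6 of 13 with Gfp, where 12.3% of all genes reached it, and by 1 of 13 with Mef2c, where 16.1% did. The median log2 difference was 0.14, with 0.13 in Gfp and 0.14 in Mef2c, and the smallest adjusted p in edgeR was 0.309. These genes are transcribed as long shared precursors and share sequence with nuclear copies, so they are not 13 separate measurements and single values are uncertain. The complex I gene mt-Nd3 ranged from 3.67 to 6.20 CPM in sham (median 5.37) and from 4.99 to 8.11 in SNI (median 6.26). For mt-Nd3, 10 of 12 SNI libraries were above the sham median and 7 above the highest sham library, a log2 difference of 0.26 (SE 0.0728). The ATP synthase gene mt-Atp6 had means of 38.6 CPM (SD 6.35, n = 12) in sham and 44.9 (SD 4.80, n = 12) in SNI. The cytochrome oxidase gene mt-Co3, overlapped by mt-Atp6, had means of 35.6 CPM (SD 5.17, n = 12) in sham and 40.8 (SD 4.07, n = 12) in SNI. The other 10 members had log2 differences between 0.10 and 0.20.

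By library, the mean of the 13 genes lay between 7.30 and 7.83 log2 CPM in Sham Gfp, 7.68 and 7.92 in SNI Gfp, 7.80 and 7.91 in Sham Mef2c, and 7.87 and 8.16 in SNI Mef2c. The lowest libraries were in Sham Gfp and the highest in SNI Mef2c, with overlap between surgeries in each vector. Leaving out each library in turn left all 13 higher, 10 to 13 at an unadjusted p below 0.05 and the median between 0.11 and 0.16. With the interferon mean as a covariate the median was 0.10, with 4 of 13 at that threshold. Nuclear genes of the same respiratory complexes differed less: of 35, 34 were higher, and the median was 0.06. An unadjusted p below 0.05 was reached by 11, all of them higher, where 5.94% of all genes were. Ndufa4, a small subunit found with cytochrome oxidase, had means of 114 CPM (SD 7.26, n = 12) in sham and 123 (SD 6.36, n = 12) in SNI, with 11 of 12 SNI libraries above the sham median. Ndufa1, a complex I subunit, differed by 0.03 (SE 0.06) with Gfp and 0.26 (SE 0.06) with Mef2c. Atp5d, an ATP synthase subunit overlapped by Cbarp, differed by 0.09 (SE 0.0318). The count of 11 moved to between 3 and 18 when single libraries were left out, to 3 with scaling by library size alone, and to 2 with the interferon covariate, where the median was 0.02.

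Genes for cytosolic ribosomal proteins had lower means in SNI. All 48 measured members were lower, 18 at an unadjusted p below 0.05, where 6.71% of all genes were. The median log2 difference was -0.07, at -0.13 with Gfp and -0.03 with Mef2c. With Gfp alone all 48 were lower and 27 had an unadjusted p below 0.05, where 12.3% of all genes did. With Mef2c alone 35 were lower and 1 had such a p, where 16.1% of all genes did. Rps24, of the small subunit, ranged from 100.1 to 132 CPM in sham (median 117) and from 99.0 to 113 in SNI (median 106). No SNI library exceeded the sham median of Rps24, and its log2 difference of -0.14 (SE 0.0346) had an adjusted p of 0.309 in edgeR and 0.0477 in DESeq2. By vector, Rps24 ranged from 116.6 to 132 CPM in Sham Gfp and from 102 to 113 in SNI Gfp. With Mef2c the ranges overlapped, at 100.1 to 121 in sham and 99.0 to 108 in SNI. The large-subunit genes Rpl32 and Rpl23 stood at -0.14 (SE 0.0463) and -0.12 (SE 0.0368). Many ribosomal protein genes have processed pseudogenes that can share their reads, so single values are uncertain. With the interferon mean as a covariate the median was -0.03, with 2 members at an unadjusted p below 0.05 and 39 of 48 lower; with limma-voom 8 were at that threshold.

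**Figure D3:**
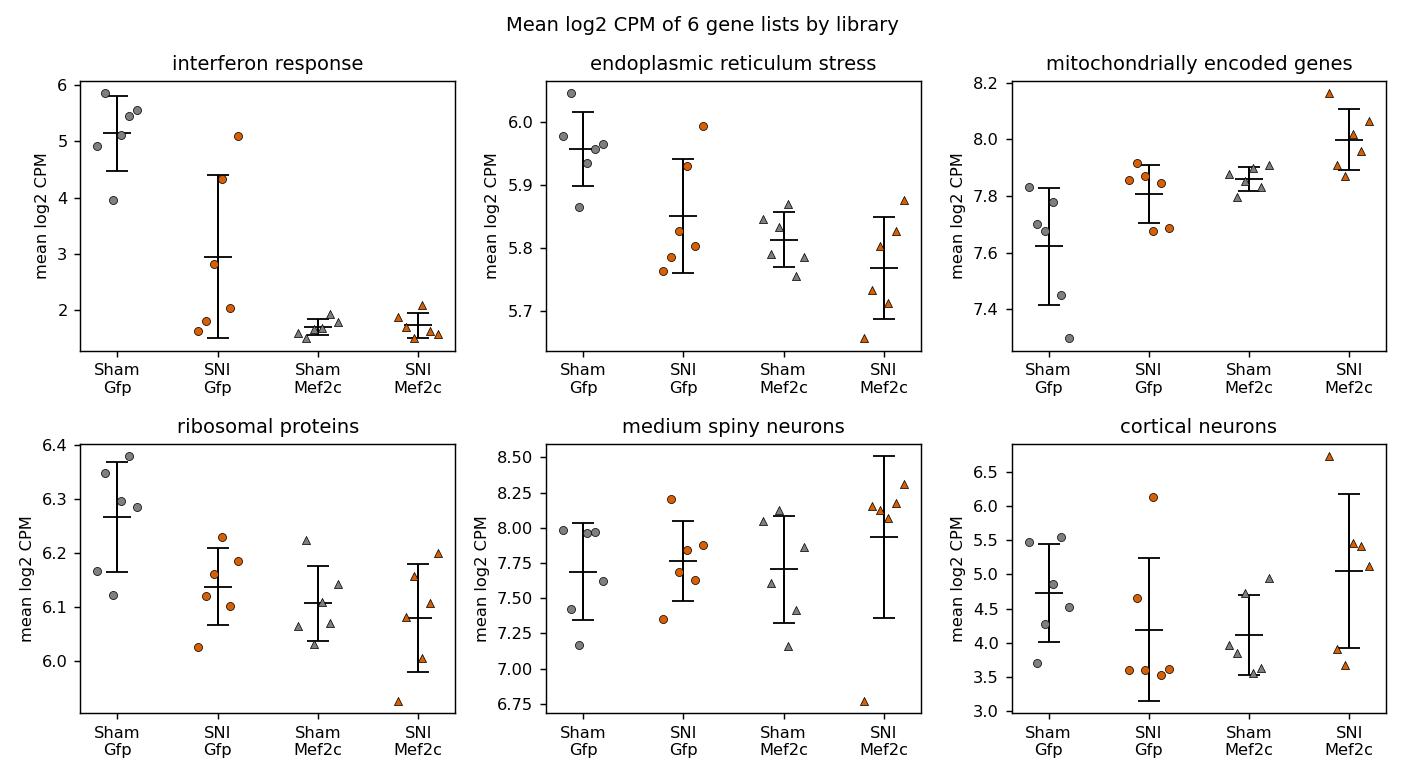
Mean log2 CPM (y axis) of the members of 6 gene lists in each library, by surgery and vector; circles are the Gfp and triangles the Mef2c vector, and bars give the mean and SD of 6 libraries. Interferon means span 1.63 to 5.10 within SNI Gfp while both Mef2c groups stay at or under 2.09, and SNI Mef2c library 1 stands apart for medium spiny (6.77) and cortical (6.73) markers.

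Several genes of the circadian clock had higher means in SNI. Of 19 measured, 5 were higher and 1 lower at an unadjusted p below 0.05, where 5.94% and 6.71% of all genes were. The median log2 difference was 0.04. Nr1d1, which encodes the repressor REV-ERB alpha, ranged from 146 to 186 CPM in sham (median 167) and from 169 to 221 in SNI (median 187). All 12 SNI libraries of Nr1d1 were above the sham median and 6 above the highest sham library. Its log2 difference was 0.15 (SE 0.037), with an adjusted p of 0.309 in edgeR and 0.0347 in DESeq2, but Thra overlaps the gene. Dbp, a transcription factor under direct clock control, had means of 90.0 CPM (SD 10.6, n = 12) in sham and 103 (SD 12.3, n = 12) in SNI, a log2 difference of 0.20 (SE 0.0674). The repressor Cry2 stood at 0.09 (SE 0.0343), Hlf, a relative of Dbp, at 0.18, and Nfil3, a repressor at the sites that Dbp binds, at -0.17. The count of 6 was 3 when library 6 of Sham Gfp, 2 of SNI Gfp or 4 of SNI Mef2c was left out. Of the core loop, the activator Arntl lay within 0.01 of zero and the repressors Per1 and Per2 at 0.02 and -0.07. The labels give no hour of collection for single libraries, so its part in the clock gene differences was not tested.

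Genes that respond to glucocorticoids were higher for 14 of 16, 3 at an unadjusted p below 0.05, with a median of 0.06, where 12.7% of all genes were at that threshold in either direction. That count was 6 without SNI Mef2c library 1 and 5 without library 1 of either Gfp group or library 3 of Sham Mef2c. Sult1a1, a sulfotransferase overlapped by Sgf29, ranged from 4.11 to 7.11 CPM in sham (median 5.37) and from 5.19 to 10.9 in SNI (median 6.77), a log2 difference of 0.39 (SE 0.105). Mt1, a metallothionein that binds zinc and copper, had means of 97.7 CPM (SD 7.65, n = 12) in sham and 107 (SD 7.92, n = 12) in SNI. Klf9, a transcription factor induced by the glucocorticoid receptor, had means of 134 CPM (SD 27.2, n = 12) in sham and 164 (SD 29.0, n = 12) in SNI, a log2 difference of 0.29 (SE 0.105). Libraries of both surgeries overlapped for all 3 genes.

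Among ion channels, 21 of 27 potassium channel genes had higher means in SNI, 7 at an unadjusted p below 0.05, where 5.94% of all genes were. The median log2 difference of the list was 0.12, at 0.06 with Gfp and 0.26 with Mef2c. Kcnq3, a subunit of the M-current channel that restrains repetitive firing, ranged from 164 to 246 CPM in sham (median 186) and from 179 to 283 in SNI (median 230.0). For Kcnq3, 11 of 12 SNI libraries exceeded the sham median, and the log2 difference was 0.25 (SE 0.0735, edgeR adjusted p = 0.309). Kcnn1, a calcium-activated SK channel, stood at 0.33 (SE 0.101) and Kcna1, a delayed rectifier, at 0.31 (SE 0.104), with 11 and 12 of 12 SNI libraries above the sham median. The inward rectifier Kcnj4 was at 0.41 and the background channel Kcnk2 at 0.23. The count of 7 was 4 when library 2 of SNI Gfp was left out and 3 without Sham Mef2c libraries 2 and 5, an alternative chosen after seeing the data.

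Of 24 sodium, calcium and HCN channel genes, 21 were higher, 5 at an unadjusted p below 0.05, where 5.94% of all genes were. Scn4b, a sodium channel beta subunit abundant in striatal neurons, had means of 339 CPM (SD 134, n = 12) in sham and 477 (SD 156, n = 12) in SNI, with log2 differences of 0.16 (SE 0.29) in Gfp and 0.78 (SE 0.29) in Mef2c. Scn2a, a pore-forming sodium channel subunit, stood at 0.09 (SE 0.0401), and Cacna2d1, the calcium channel subunit that binds gabapentin, at 0.20 (SE 0.0948). This count of 5 lay between 0 and 7 when single libraries were left out, and was 0 without Sham Mef2c libraries 2 and 5. Of 32 glutamate receptor and scaffold genes, 22 were higher and 4 had an unadjusted p below 0.05, 4 higher and 0 lower, where 12.7% of all genes had one. The count was 9 without Sham Gfp library 1, 8 when library 1 of SNI Gfp was left out, and 7 without library 4 of Sham Gfp or 3 of Sham Mef2c. The kainate receptor subunit Grik5 had means of 274 CPM (SD 37.3, n = 12) in sham and 315 (SD 41.0, n = 12) in SNI, and the scaffold Dlg3 167 CPM (SD 18.2, n = 12) in sham and 186 (SD 20.3, n = 12) in SNI. The NMDA receptor subunits Grin2c and Grin1 stood at log2 differences of 0.27 and 0.11. For GABA receptors and synthesis the median was -0.03, with 0.10 in Gfp and -0.19 in Mef2c, and none of 21 members was at that threshold. Gabrd, the delta subunit of extrasynaptic GABA receptors, had means of 77.8, 77.3, 67.3 and 101 CPM in Sham Gfp, SNI Gfp, Sham Mef2c and SNI Mef2c.

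Markers of medium spiny neurons were higher in SNI for 23 of 27 genes, with a median of 0.19. None was at an unadjusted p below 0.05, where 12.7% of all genes were. Ppp1r1b, the dopamine-regulated phosphatase inhibitor DARPP-32, ranged from 286 to 627 CPM in sham (median 479) and from 316 to 727 in SNI (median 594). The ranges overlapped over most of their length, and the log2 difference was 0.25 (SE 0.158). Drd2, the dopamine receptor of indirect pathway neurons, had means of 101 CPM (SD 30.1, n = 12) in sham and 120.3 (SD 33.4, n = 12) in SNI. The adenosine receptor gene Adora2a, expressed in the same neurons, had means of 165 CPM (SD 47.4, n = 12) in sham and 201 (SD 63.2, n = 12) in SNI, and the enkephalin precursor Penk 568 CPM (SD 108, n = 12) in sham and 649 (SD 183, n = 12) in SNI. SNI Mef2c library 1 gave the lowest SNI value of each of these 4 genes. Without that library the median of the list was 0.26 and 26 of 27 were higher. An unadjusted p below 0.05 was then reached by 5, where 3348 of 23962 genes reached it. The library left out had the lowest mean of this list, so higher values without it follow from that choice. The list mean of the other 5 SNI Mef2c libraries lay between 8.07 and 8.31 log2 CPM, against 7.16 to 8.13 in Sham Mef2c. The part of these markers in the channel and receptor differences was not tested.

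In receptor families of pain and mood, 2 of 13 serotonin, 2 of 8 opioid, 2 of 10 endocannabinoid and 1 of 18 dopamine genes had an unadjusted p below 0.05, where 12.7% of all genes did. With single libraries left out these counts lay between 1 and 3, 0 and 2, 1 and 4, and 0 and 4. The serotonin members were Htr2a, with means of 23.8 CPM (SD 8.32, n = 12) in sham and 32.7 (SD 9.81, n = 12) in SNI and 11 of 12 SNI libraries above the sham median, and Htr1d, with 10.9 CPM (SD 2.68, n = 12) in sham and 13.6 (SD 2.97, n = 12) in SNI. Of 8 opioid peptides and receptors, the delta receptor gene Oprd1 had means of 20.4 CPM (SD 6.10, n = 12) in sham and 25.3 (SD 4.71, n = 12) in SNI. Pomc, the precursor of beta-endorphin, stood at -0.35 (SE 0.163). Sham Gfp library 6 held 4.88 CPM of Pomc and the other 23 libraries 1.23 to 2.10, and without it the difference was -0.15 and the opioid count 0. Pnoc, the precursor of nociceptin, stood at 0.19 (SE 0.38) with Gfp and -1.03 (SE 0.38) with Mef2c, with an edgeR adjusted p of 0.321 for that interaction. In the dopamine list 13 of 18 were higher, and the kinase Prkcb, at 0.23, was the 1 member at that threshold. The dopamine count was 4 without SNI Mef2c library 1 and 0 without each of 11 other libraries. Of 10 endocannabinoid genes 9 were higher, with the hydrolase Abhd6 at 0.09 (SE 0.0382). The cannabinoid receptor Cnr2, found on immune cells, was the 1 lower member, with means of 1.34 CPM (SD 1.00, n = 12) in sham and 0.672 (SD 0.578, n = 12) in SNI. For the endocannabinoid list with Gfp and the opioid list with Mef2c, medians of 0.02 and 0.06 had the opposite sign to the list means, which went from 5.16 to 5.03 and from 5.30 to 5.21 log2 CPM. In the opioid list SNI Mef2c library 1 stood at 4.40 and the other 5 SNI Mef2c libraries between 5.27 and 5.49.

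Interferon-stimulated genes had lower means in SNI, with the difference in libraries of the Gfp vector. All 36 were lower averaged over both vectors and 25 had an unadjusted p below 0.05, where 6.71% of all genes were lower at that threshold. The median log2 difference was -0.90, at -1.63 with Gfp, where 36 were at that threshold, and 0.02 with Mef2c, where 0 were. The interaction of surgery and vector had an unadjusted p below 0.05 for 32 of 36, where 14.9% of all genes did, and a smallest adjusted p of 0.313 in edgeR. In log2 CPM, list means were 5.14 for Sham Gfp (SD 0.67, n = 6), 2.95 for SNI Gfp (SD 1.45, n = 6), 1.69 in Sham Mef2c (SD 0.15, n = 6) and 1.72 in SNI Mef2c (SD 0.22, n = 6). Within SNI Gfp, libraries 4 and 6 stood at 4.33 and 5.10, inside the range of Sham Gfp (3.96 to 5.86), and the other 4 between 1.63 and 2.81. Without these 2 libraries, edgeR called 208 of 24121 genes averaged over both vectors, 201 of them lower. The interferon median was then -1.37, with 36 at an unadjusted p below 0.05, where 3374 of the 24121 genes were. This alternative was chosen after seeing the data, by these same interferon means. Lower interferon levels in the remaining SNI libraries follow from that choice, so these values are a description and no separate support. Without SNI Gfp library 3 the count of 25 was 15.

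Mx1, an antiviral GTPase, ranged from 0.302 to 27.8 CPM in sham (median 2.52) and from 0.250 to 10.0 in SNI (median 0.715). Its means were 16.9, 3.38, 0.639 and 0.497 CPM in Sham Gfp, SNI Gfp, Sham Mef2c and SNI Mef2c. Cmpk2, a nucleotide kinase induced by interferon, had means of 44.2, 32.1, 29.3 and 28.9 CPM in the same order, and Dhx58, a regulator of RNA sensing, 10.2, 3.29, 1.65 and 1.50 CPM. Sham Gfp was the highest group for all 3 genes. Of 21 genes of antigen presentation, 21 were lower, 11 at an unadjusted p below 0.05, where 6.71% of all genes were. The median of these 21 was -0.93, at -1.30 with Gfp and -0.09 with Mef2c. Tapbp, which helps load peptides onto class I molecules, had means of 122, 71.9, 50.9 and 48.9 CPM in that order of groups, and the class I gene H2-M3 15.7, 7.72, 3.47 and 2.75 CPM. Left-out libraries moved the count of 11 to between 4 and 19. With the interferon mean as a covariate, 15 were lower, 0 at that threshold, with a median of -0.03.

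Microglial markers had a median of -0.27, at -0.55 with Gfp and 0.07 with Mef2c, with 17 of 19 lower. At an unadjusted p below 0.05 there were 10 lower members and 1 higher, Fcrls at 0.50, where 6.71% of all genes were lower and 5.94% higher. With the interferon mean as a covariate the microglial median was 0.0149, with 7 of 19 lower and 0 at that threshold. Sall1, a transcription factor of microglia, ranged from 33.1 to 65.2 CPM in sham (median 42.0) and from 30.6 to 53.4 in SNI (median 35.8). Selplg, a selectin ligand, had means of 38.8, 27.4, 22.6 and 22.5 CPM in Sham Gfp, SNI Gfp, Sham Mef2c and SNI Mef2c, and the integrin Itgam, overlapped by Gm49368, 33.7, 19.1, 13.6 and 13.7 CPM. The homeostatic marker P2ry12 differed by less than 0.01, and the fractalkine receptor Cx3cr1 by -0.12. Of 21 neuropathic pain and neurotrophin genes, 10 were higher and 11 lower, with a median of -0.01. At an unadjusted p below 0.05, 1 was higher (Cacna2d1) and 2 lower (P2rx4 and P2rx7), where 5.94% and 6.71% of all genes were. The purinergic receptor gene P2rx4 ranged from 17.8 to 34.2 CPM in sham (median 24.4) and from 17.04 to 23.98 in SNI (median 20.3). No SNI library exceeded the sham median of P2rx4. P2rx7 had means of 25.2, 16.7, 13.5 and 12.6 CPM in the same order of groups, so both receptors were highest in Sham Gfp.

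Of 20 cytokines and chemokines 17 were lower, 9 of them at an unadjusted p below 0.05, where 6.71% of all genes were. The same share applies to the complement and lymphocyte counts below. With the interferon covariate 4 of the 20 were lower, 3 members were at that threshold and the median turned from -0.92 to 0.12. Il1b had means of 0.853 CPM (SD 0.851, n = 12) in sham and 0.303 (SD 0.317, n = 12) in SNI, and Il1a, overlapped by Gm14023, 2.04 CPM (SD 1.29, n = 12) in sham and 1.15 (SD 0.492, n = 12) in SNI. Complement genes were lower for 13 of 14, 6 at that threshold, with a median of -0.61. With that covariate 3 of 14 were lower, 1 member of either direction was at that threshold, and the median was 0.08. C2, a component of the classical pathway overlapped by Gm20547, stood at -0.24 (SE 0.12) with Gfp and -0.28 (SE 0.12) with Mef2c, and 8 of 12 SNI libraries lay below the lowest sham library. Cfb, of the alternative pathway and under the same overlap, stood at -1.34 (SE 0.33) and -0.14 (SE 0.34). Lymphocyte markers had a median of -1.26, with 20 of 22 lower, 6 at that threshold, and list means between -2.26 and 2.27 log2 CPM over the libraries. Their median was 0.52 with the covariate, with 3 of 22 lower and 3 of either direction at that threshold. The counts moved with single libraries, to between 6 and 14 for microglia, 8 and 16 for cytokines, 2 and 11 for complement and 4 and 20 for lymphocytes.

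**Figure D4:**
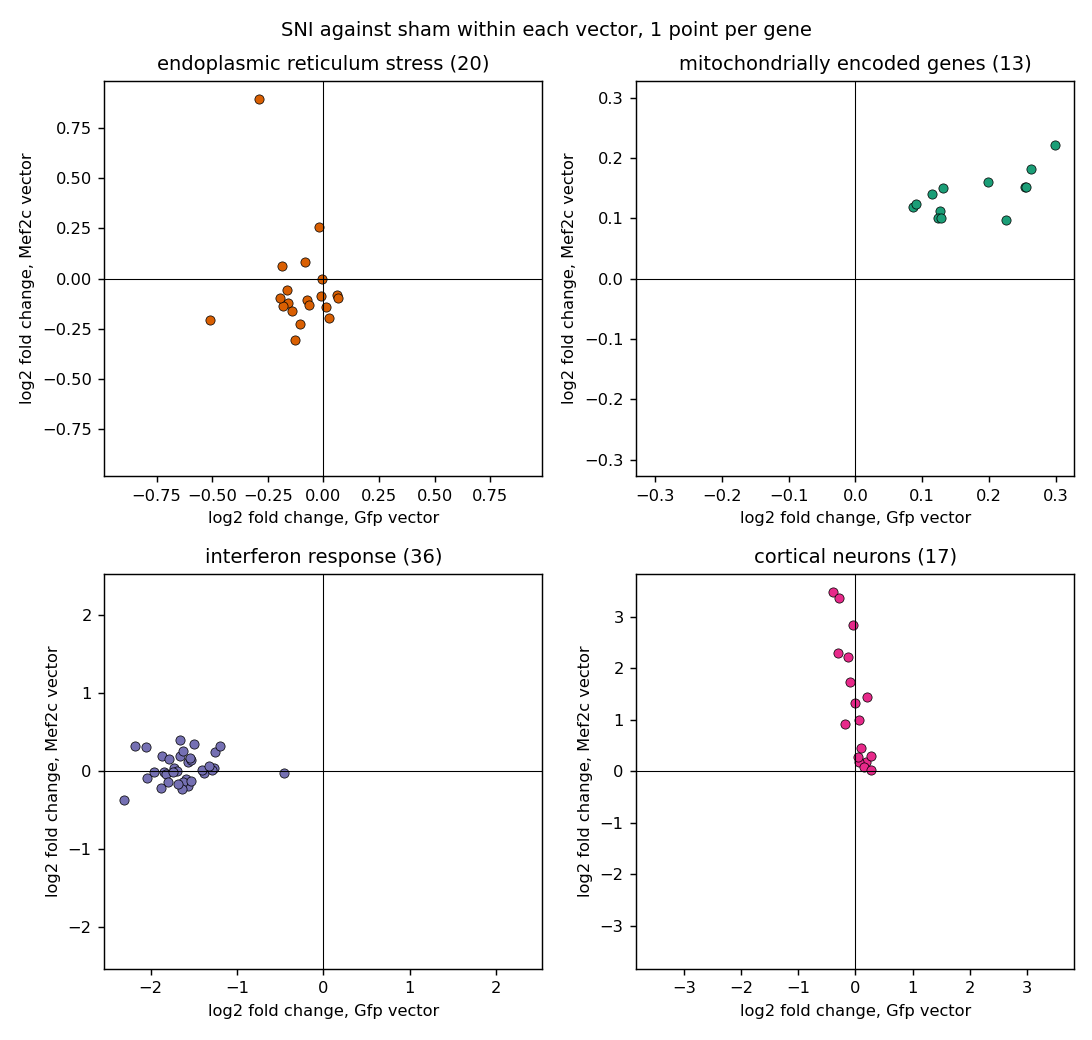
Log2 fold change of SNI against sham with the Gfp vector (x axis) and with the Mef2c vector (y axis) for the members of 4 lists, 1 point per gene. All 13 mitochondrially encoded genes lie in the upper right quadrant and 12 of 20 endoplasmic reticulum genes in the lower left, whereas interferon genes have a median of -1.63 on the x axis and 0.02 on the y axis, and cortical genes 0.04 and 0.99. Of all genes tested, 24.7% were higher and 22.1% lower with both vectors.

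Markers of neighbouring tissue varied between punches. Cortical neuron markers had a median log2 difference of 0.53, at 0.04 with Gfp and 0.99 with Mef2c. Within Gfp the list mean had the opposite sign to the median, at 4.73 for Sham Gfp (log2 CPM, SD 0.71, n = 6) and 4.19 for SNI Gfp (SD 1.04, n = 6). With Mef2c it was 4.12 (SD 0.58, n = 6) and 5.05 (SD 1.12, n = 6). Without SNI Mef2c library 1 the averaged median was 0.23. Camk2n1, an inhibitor of CaMKII that is not limited to cortex, had means of 669 CPM (SD 126, n = 12) in sham and 813 (SD 170.1, n = 12) in SNI and was, with Mef2c, 1 of 2 members at an unadjusted p below 0.05. These were 2 of 17 measured, where 12.7% of all genes had such a p. The list mean and median above include Mef2c, the gene carried by the vector. With the cortical mean without Mef2c as a covariate, edgeR called 3 genes, Zfp574, St3gal2 and Hspa5, at adjusted p-values of 0.0429, 0.0429 and 0.0442. St3gal2 was chosen after its values were seen.

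Markers of fibroblasts and meninges were higher in SNI for 10 of 11 genes, with a median of 0.55, at 0.97 with Gfp and 0.18 with Mef2c. Ptgds, a prostaglandin D synthase of the meninges, ranged from 17.7 to 392 CPM in sham (median 51.6) and from 35.2 to 648 in SNI (median 182), a log2 difference of 1.37 (SE 0.501, edgeR adjusted p = 0.324). The transporters Slc6a13 and Slc22a6 stood at 1.02 (SE 0.427) and 1.55 (SE 0.694). Each of the 3 genes was highest in SNI Gfp library 3, and without it the transporters stood at 0.53 and 0.96. The list median was then 0.26, with 1 in place of 5 members at an unadjusted p below 0.05. With all 24 libraries, 5.94% of all genes were higher at that threshold. Septal markers, at 0.28 with Gfp and -0.51 with Mef2c, and myelin markers, at 0.13 and -0.15, had medians of opposite sign in the vectors. Immediate early genes, induced by neuronal activity, stood at -0.23 and 0.26, with no member of 29 at that threshold in the average. The medians averaged over both vectors, at -0.08 for septal, -0.02 for myelin and 0.01 for immediate early genes, therefore hold opposite values within them.

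**Figure D5:**
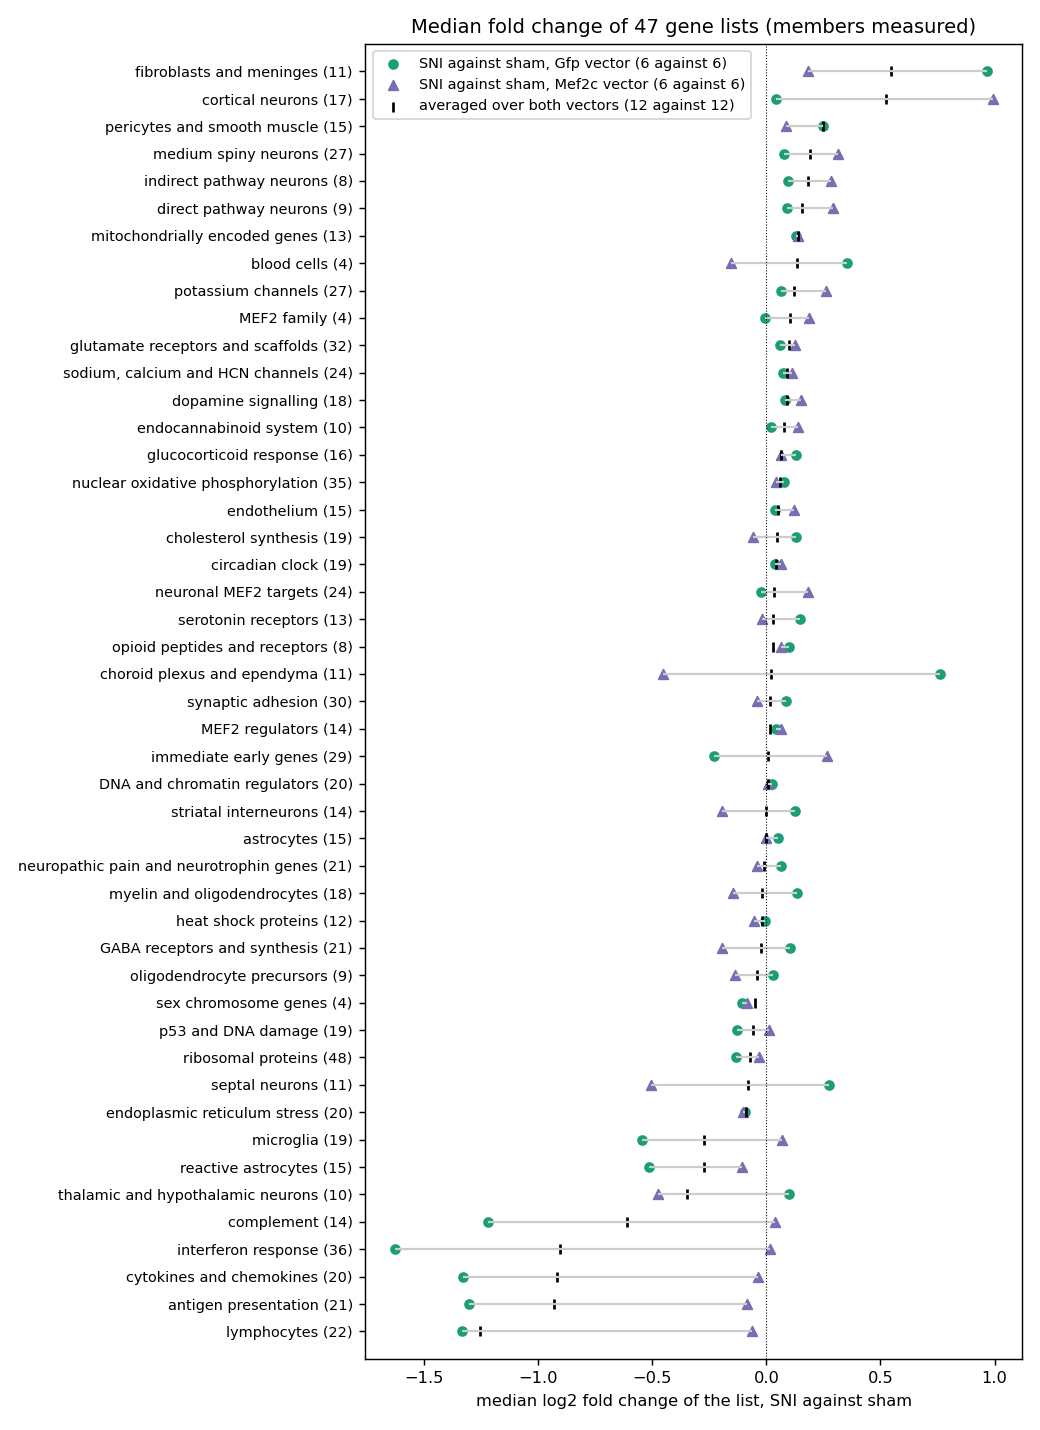
Median log2 fold change of SNI against sham (x axis) for each of 47 gene lists, with the Gfp vector (circles), the Mef2c vector (triangles) and averaged over both (black ticks). Mitochondrially encoded genes (0.13 and 0.14) and the endoplasmic reticulum list (-0.09 and -0.10) have close values in both vectors, while interferon (-1.63 and 0.02) and cortical lists (0.04 and 0.99) do not.

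The MEF2 family was measured by 4 genes. Mef2c differed by 0.66 (SE 0.228) averaged over both vectors, with an edgeR adjusted p of 0.317, but by -0.01 (SE 0.25) with Gfp and 1.33 (SE 0.25) with Mef2c. Whether its counts come from the vector or the mouse gene cannot be told apart. With the Mef2c vector every SNI library exceeded every sham library in Mef2c, so surgery and Mef2c level cannot be told apart there either. Mef2d had means of 281 CPM (SD 35.3, n = 12) in sham and 310.0 (SD 26.8, n = 12) in SNI, at 0.08 and 0.20 in the vectors. Mef2a, overlapped by Lysmd4, stood at 0.06 (SE 0.0608) and Mef2b at -0.06 (SE 0.0455). Among 14 regulators of MEF2 proteins, 4 were higher at an unadjusted p below 0.05, where 5.94% of all genes were. These were the calcineurin subunits Ppp3cb at 0.12 and Ppp3r1 at 0.17, the kinase Camk4 at 0.26 and the methyltransferase Carm1 at 0.06. Carm1 differed by 0.12 (SE 0.03) with Gfp and by less than 0.01 with Mef2c. It ranged from 76.0 to 79.8 CPM in Sham Gfp and from 81.8 to 87.8 in Sham Mef2c. All 12 SNI libraries lay above the median of all sham libraries, but so did every Sham Mef2c library. Of 24 neuronal MEF2 targets, 13 were higher and 1, Kcna1, had an unadjusted p below 0.05, where 12.7% of all genes did.

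An unadjusted p below 0.05 was reached by 2928 genes with Gfp, 12.3% of all tested, and by 3816 with Mef2c, 16.1%. Of these, 165 were in both, 5.64% of the first and 4.32% of the second. Of these 165, 60 were higher and 38 lower in SNI with both vectors, and 67 had opposite directions. Surgery and vector interacted at an unadjusted p below 0.05 in 3529 genes (14.9%), and at an adjusted p below 0.05 in 0 (0%) with edgeR, 1 (0.00421%) with DESeq2 and 4120 (17.4%) with limma-voom. The limma-voom fits also weighted each library by its estimated quality, and the part of these weights in the counts was not tested. Among the named genes the smallest unadjusted interaction p-values in edgeR were those of Mef2c (0.000984), Cmpk2 (0.00128), Carm1 (0.00406), Itgam (0.00307) and Il1a (0.00171), each with an adjusted p of 0.313. Within the vectors, edgeR called 0 genes (0%) with Gfp and 0 (0%) with Mef2c, DESeq2 553 (2.33%) and 13 (0.0548%), and limma-voom 2794 (11.8%) and 0 (0%).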

How the data were processed

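The comparison and the gene lists were chosen with earlier results of these data known. Poly(A) RNA from 24 libraries was measured, 12 SNI and 12 sham, each with 6 libraries per vector. The authors' deposited table of counts per gene was the basis of all tests; reads had been counted with featureCounts against mm10, per the submitters' processing notes, while aligner, annotation, versions and strand setting were not given in the sources used. The deposited FPKM matched counts over library total and whole gene span in 100% of 793675 values (relative tolerance 1e-06), and served in alternatives only. Of 55401 identifiers, 55141 carried a symbol and 11852 had no count. Libraries of one group were not duplicates: over 60 pairs the chi-square per degree of freedom was at least 3.22. Totals of 25477019 to 36570108 counts limit precision for genes near 0 CPM.

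Counts were filtered by filterByExpr over the 4 groups and scaled by TMM. Surgery was tested with the vector as a covariate (21 residual degrees of freedom) by edgeR's quasi-likelihood test (edgeR 4.0.16, R 4.3.3), two-sided, with Benjamini-Hochberg adjustment over 23738 genes and a threshold of 0.05. Differences within a vector and the interaction came from 1 coefficient per group (20 degrees of freedom). The procedure was tested on simulated counts. Levels are CPM of TMM-scaled libraries; list means are of log2 CPM with a prior count of 2. Lists were described by counts and medians and had no test of their own. Genes were named by rule: since fewer than 5 passed, the 10 smallest p-values outside predicted and clone-named genes, up to 3 members of each of 47 lists by p, and the 4 MEF2 genes; other members of a list named in the text were chosen after their values were seen. Some results are not reported here. Promoters came from RefSeq (GRCm38.p6), matched by symbol. Alternatives were RLE scaling, library size alone, no or a stricter count filter, no covariate, 1 coefficient per group, cortical or interferon list means as covariates, a replicate block, DESeq2 1.42.0, limma-voom (limma 3.58.1), log2 FPKM with 1 or 0.1 added, and each library left out. The limma-voom fits used an estimated quality weight per library. Mef2c was left out of the cortical mean used as a covariate.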

Additional observations from a re-analysis of the deposited data

Results flagged for a closer look

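In the 4 groups of 6 libraries, 55 of 508 sets of 6 values held a highest or lowest library whose gap to the next one exceeded 0.625 of the whole range, for 80 genes and 47 lists. This is 10.8%. The cut of 0.625 is passed by about 1 in 20 sets when values are normal and sets independent. Neither was shown here: some genes count again within lists, and SNI Mef2c 1 held 22 of the 55. The share is therefore a description and was not tested against chance. Values are CPM for genes and mean log2 CPM for lists. SNI Mef2c 1 was far above the rest of its group for Zfand5 (154), Mir138-1 (0.867), Nr1d1 (221), Pnoc (6.67) and Eya1 (24.3), and far below it for Dbp (85.0), Penk (225), Drd2 (54.5), Adora2a (72.6), Ppp1r1b (316) and Gabra4 (117). SNI Mef2c 1 stood, as list means, far above the rest of its group for microglia (4.23), endothelium (4.85) and endocannabinoid system (5.36), and far below it for septal neurons (3.84), medium spiny neurons (6.77), direct pathway neurons (5.08), indirect pathway neurons (5.07), opioid peptides and receptors (4.40), dopamine signalling (4.74), serotonin receptors (3.03) and GABA receptors and synthesis (7.35). Sham Mef2c 6 was far above the rest of its group for Dhx58 (2.02) and Selplg (26.5). Sham Mef2c 6 stood, as list means, far above the rest of its group for microglia (4.36), lymphocytes (-1.43), serotonin receptors (3.64) and synaptic adhesion (7.26). SNI Gfp 3 was far above the rest of its group for Slc6a13 (51.5), Slc22a6 (23.7) and Bmp4 (8.92). SNI Gfp 3 stood, as list means, far above the rest of its group for endothelium (4.89) and pericytes and smooth muscle (4.23). SNI Gfp 6 was far above the rest of its group for Cfb (12.7), and far below it for Ndufa4 (108) and Atp5d (133). SNI Gfp 6 stood, as list means, far above the rest of its group for choroid plexus and ependyma (4.30), and far below it for nuclear oxidative phosphorylation (6.59). Sham Gfp 2 was far above the rest of its group for Adcy7 (48.7), Psmb10 (33.1) and Il1a (4.79). Sham Mef2c 3 was far above the rest of its group for Ndufa1 (29.8), Ptgds (392) and Slc22a6 (10.5). Sham Mef2c 4 was far above the rest of its group for Hspa5 (233), and far below it for Kdm5d (58.2). Sham Mef2c 4 stood, as list means, far above the rest of its group for thalamic and hypothalamic neurons (3.79). SNI Mef2c 4 was far above the rest of its group for Dhx58 (2.01) and Htr1d (19.1). Sham Gfp 5 was far above the rest of its group for Bmp4 (2.74). Sham Gfp 5 stood, as list means, far above the rest of its group for endothelium (4.83). SNI Gfp 2 was far above the rest of its group for Kcnq3 (260.0). Sham Gfp 3 stood, as a list mean, far below the rest of its group for glucocorticoid response (4.76). Sham Gfp 4 stood, as a list mean, far below the rest of its group for heat shock proteins (5.13). Sham Gfp 6 was far above the rest of its group for Slc6a13 (7.05).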

How the results depend on the processing

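Averaged over both vectors, the count of called genes was 0 with RLE scaling, no count filter, library size alone, the stricter filter, 1 coefficient per group, no vector covariate, the interferon covariate, limma-voom and both FPKM fits. It was 1 with the replicate block (Zfp574, adjusted p = 0.0292), 3 with the cortical covariate, 38 with DESeq2 and 0 to 7 with single libraries left out: 7 without SNI Gfp 6, of which Zfp574 was 1, and 1, Zfp574, without Sham Mef2c 1 or SNI Mef2c 2. Both removals of pairs were chosen after seeing the data. Without SNI Gfp libraries 4 and 6, chosen by their interferon means, the count was 208. Without Sham Mef2c libraries 2 and 5 it was 0. With the Gfp vector the count was 1 with RLE scaling and with the block (Sult6b1 both times, named after its values were seen), 553 with DESeq2, 2794 with limma-voom and 0 to 1392 with single libraries left out, 1392 without SNI Gfp 6 and 880 without Sham Gfp 3. With the Mef2c vector it was 13 with DESeq2 and 0 to 1 with single libraries left out (Mef2c, without Sham Mef2c 1). For the interaction it was 1 with DESeq2 (Ighv3-2), 4120 with limma-voom and 0 to 269 with single libraries left out, 269 without SNI Gfp 6. The cause of these shifts was not tested. Replicate numbers did not pair the libraries: over 12 same-numbered pairs within a vector, correlations of deviations ranged from -0.43 to 0.28, 3 of them above 0.1, and 2 of 24 libraries correlated best with their own number. Among genes named by rule, log2 differences that changed sign included, with the interferon covariate, Ms4a1 (0.0049), Klrd1 (0.11), C4a (0.030), Cxcl10 (0.32), Mobp (-0.015), Atf3 (0.22) and Trp53inp1 (0.026). With the cortical covariate they included Vip (-0.20) and Neurod2 (-0.30). With single libraries left out Aqp1 ranged from -0.014 to 1.22 and Kcne2 from -0.38 to 1.09, both lowest without SNI Gfp 6, and without SNI Gfp 4 and 6 they stood at -0.046 and -0.35. With the interferon covariate, members lower in SNI went from 20 to 3 of 22 lymphocyte markers, 13 to 3 of 14 complement genes, 17 to 4 of 20 cytokines and 17 to 7 of 19 microglial markers. Genes near 0 CPM, such as lymphocyte markers, rest on few counts.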

Other observations

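Some genes outside the lists had an unadjusted p below 0.05 within both vectors and the same direction in each, and the following were chosen after their values were seen. Edn3, an endothelin peptide precursor, had log2 differences of 0.38 averaged, 0.38 with Gfp and 0.38 with Mef2c. Rhob, a small GTPase of endosomes and the actin cytoskeleton, stood at 0.12 averaged, 0.12 with Gfp and 0.12 with Mef2c. Atp5g1, a nuclear gene for the ring subunit of ATP synthase, stood at 0.14 averaged, 0.15 with Gfp and 0.13 with Mef2c. None of these passed the adjusted threshold in edgeR, where their adjusted p-values were 0.309, 0.309 and 0.309 in the averaged comparison.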
